A study of Mus musculus with 8 samples.

Results

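The inner root sheath keratins are 8 keratin genes, the type I genes Krt25, Krt26, Krt27 and Krt28 and the type II genes Krt71, Krt72, Krt73 and Krt74. They were chosen as the keratins of that sheath, by name, and found on the array through the RefSeq accession of each probe. They are 8 of 20128 named genes with a probe, and 9 of 55603 probes, since Krt28 has a pair of probes. RNA from whole skin of C57BL/6N mice was hybridised to Agilent single-colour arrays, 1 array per sample, all on 1 slide. The groups were hair loss skin of Cchcr1 mutants (2 arrays), normal skin of Cchcr1 mutants (4 arrays) and normal skin of wild type mice (2 arrays). The mutants carry a Cchcr1 gene changed by genome editing with CRISPR/Cas9, made as a model of the patchy hair loss of alopecia areata. The allele, the age and sex of the mice and the body site and hair cycle stage of the skin are not given in the sources used here.

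Sample titles carry a number and a letter that the labels do not explain. Hair loss replicate 1 and mutant normal skin replicates 1 and 2 are titled Mutant097. Hair loss replicate 2 and mutant normal skin replicates 3 and 4 are titled Mutant113, and both wild type replicates are titled Wild001. It is not stated that replicates came from separate animals, so p-values measure the spread between these samples, which may be technical. In comparisons with wild type, the genotype and the title number cannot be told apart. On the slide, row 1 had every Mutant097 array and hair loss replicate 2, and row 2 had the remaining mutant normal skin and both wild type arrays.

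The inner root sheath is the rigid tube of keratinocytes that surrounds and moulds the growing hair shaft inside the follicle. It has a Henle layer, a Huxley layer and a cuticle, is built from the follicle bulb while a hair grows, and breaks down before the hair reaches the surface. Its cells assemble filaments from pairs of 1 type I and 1 type II keratin and embed them in trichohyalin, and changes in several of these keratin genes are known from mice and people with wavy or woolly hair. A resting follicle makes no inner root sheath.

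In RefSeq's gene order, Krt25 to Krt28 lie next to each other on chromosome 11, with Gm32502 between Krt25 and Krt26. Krt71, Krt74, Krt72 and Krt73 are direct neighbours in that order on chromosome 15. Krt74, in people a keratin of the Huxley layer, is listed by RefSeq as a transcribed pseudogene in the mouse. The sequence before the start site was found for 7 of the 8 members in the RefSeq promoter table (GRCm38.p6), with Krt74 missing. The 200 bases before the annotated start are shown for 5 members, as gene strand 5′ to 3′ (all are on the minus strand). Of these, Krt25, Krt28, Krt71 and Krt73 passed the test of both mutant groups against wild type below and Krt72 passed neither. Krt26 and Krt27 also passed both tests and are not shown. Capitals mark TATAAA and GATAA on either strand and a 14-base run that Krt71 and Krt73 share. The windows are chr11:99322952-99323151 for Krt25, chr11:99374904-99375103 for Krt28, chr15:101743098-101743297 for Krt71, chr15:101802361-101802560 for Krt73 and chr15:101786521-101786720 for Krt72.
Krt25: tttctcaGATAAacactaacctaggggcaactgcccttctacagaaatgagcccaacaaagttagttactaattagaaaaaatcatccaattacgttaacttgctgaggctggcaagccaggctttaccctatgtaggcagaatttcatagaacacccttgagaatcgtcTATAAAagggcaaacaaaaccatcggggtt
Krt28: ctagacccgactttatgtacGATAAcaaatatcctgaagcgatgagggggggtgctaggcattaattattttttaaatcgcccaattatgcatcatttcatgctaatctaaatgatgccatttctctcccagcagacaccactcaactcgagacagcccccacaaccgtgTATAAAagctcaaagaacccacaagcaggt
Krt71: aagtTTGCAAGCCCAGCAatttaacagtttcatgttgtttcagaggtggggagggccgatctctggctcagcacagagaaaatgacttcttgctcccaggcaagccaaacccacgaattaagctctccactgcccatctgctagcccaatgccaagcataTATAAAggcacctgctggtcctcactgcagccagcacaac
Krt73: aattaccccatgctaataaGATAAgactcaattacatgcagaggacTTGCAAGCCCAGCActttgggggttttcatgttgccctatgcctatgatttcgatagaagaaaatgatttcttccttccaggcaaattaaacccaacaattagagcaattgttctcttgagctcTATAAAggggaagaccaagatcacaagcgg
Krt72: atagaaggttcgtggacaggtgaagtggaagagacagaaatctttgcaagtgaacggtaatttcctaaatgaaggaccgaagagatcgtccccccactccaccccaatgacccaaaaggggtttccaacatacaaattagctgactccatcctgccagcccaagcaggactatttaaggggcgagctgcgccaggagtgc

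In the 250 bases before the start, TATAAA was present on either strand in 7 of 7 member windows, and in 12.4% of the 32851 promoters in the table. On the gene strand within the last 50 bases it was present in 6 of 7 and in 2.63% of all promoters. Its first base lay 30 bases before the start in Krt25, Krt26, Krt28 and Krt73, 40 in Krt71 and 15 in Krt27. The Krt72 window had its TATAAA on the opposite strand, 203 bases before the start. GATAA, the core that GATA factors bind, was present in 5 of 7 windows (Krt25, Krt27, Krt28, Krt71 and Krt73) and in 22.6% of all. AATTA, a homeobox core, was present in 7 of 7 and in 25% of all, and in Krt27 the GATAA 93 bases before the start overlaps an AATTA on the opposite strand that begins 91 bases before it. The LEF and TCF cores CTTTGA (13.8% of all) and CTTTGT (16.5% of all) were present in 1 of 7 each, Krt28 and Krt25. All motifs were searched as exact letters, on both strands unless stated. Close variants, such as the tatttaa near the start of Krt72, were not counted. The run ttgcaagcccagca, 196 bases before the start of Krt71 and 154 bases before that of Krt73, was held by 2 of all promoters in the table, these same ones.

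**Figure D1:**
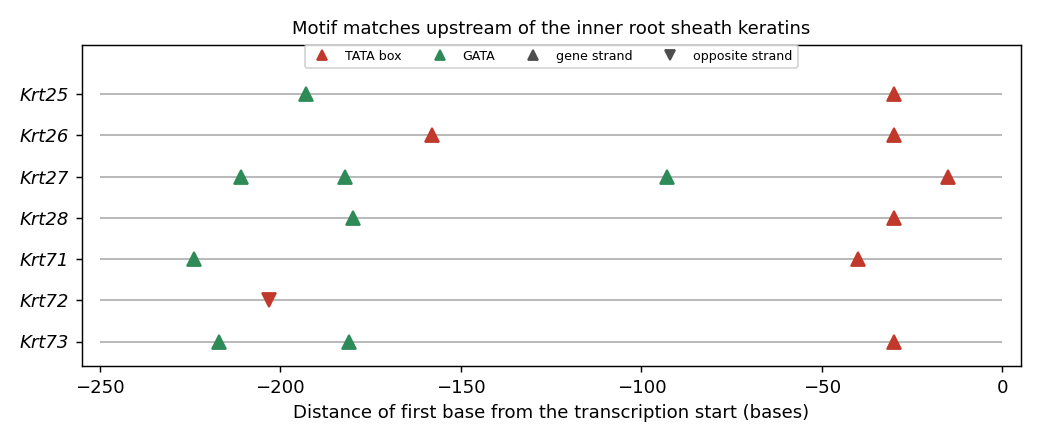
Position of TATAAA (red) and GATAA (green) matches in the 250 bases before the start site of the 7 members in the promoter table; the x axis is the distance of the first base from the start in bases, and upward and downward triangles are matches on the gene strand and the opposite strand. A red triangle lies within the last 50 bases in 6 of the 7 genes, all but Krt72.

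Levels are log2 processed intensities minus the 75th percentile of the array, so 0 is that percentile. Each probe has its own scale, and a level of 1 probe was not set against that of another. A probe counts as above background on an array where the scanner software marks it well above background. All 8 members passed the filter for testing, above background on at least 2 of 8 arrays. Krt26 and Krt74 passed it only through mutant arrays. Across the arrays, 25424 to 30205 probes were above background, and the 75th percentile of the intensity ran from 83.1 to 211 and was lowest in wild type replicate 1. The skin label was checked against the markers of interfollicular epidermis and of fibroblasts, whose mean levels were 6.12 to 7.08 and 5.66 to 7.35 on all arrays.

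Inner root sheath keratins were far higher in the normal skin of Cchcr1 mutants than in wild type skin. Of the 8 genes, 6 rose past the threshold (limma, adjusted p under 0.05 over all probes tested): Krt25, Krt26, Krt27 and Krt28 of type I and Krt71 and Krt73 of type II. Of all 30417 probes tested, 175 (0.575%) were called higher. The fitted differences of the 6 ran from 5.65 to 10.56 on the log2 scale, and from 5.65 to 9.48 with wild type arrays that were not above background set to the lowest signal above background there. Krt72 and Krt74 did not pass the threshold. In whole skin, fewer cells of a type and less RNA per cell cannot be told apart.

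Krt25, a type I keratin of all 3 sheath layers, had levels of 6.85, 5.12, 7.50 and 6.42 in mutant normal skin replicates 1 to 4, of 8.18 and 6.97 in hair loss replicates 1 and 2, and of -2.28 and -5.90 in wild type replicates 1 and 2. Every mutant array stood above both wild type arrays, and wild type replicate 2 was not above background. Mutant normal skin was higher than wild type by 10.56 ± 1.01 (SE, n = 4 and 2; 95% interval 8.21 to 12.91; limma adjusted p = 0.0107). With wild type replicate 2 at the lowest signal above background on its array, the difference of the means was 9.48, and with normexp the fitted difference was 7.35 (limma adjusted p = 0.0012). Without wild type replicate 1 the difference was 12.37, a value that rests on replicate 2 alone.

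Krt27, the type I neighbour with the same broad place in the sheath, had 6.65, 5.10, 7.94 and 6.80 in mutant normal skin, 8.32 and 7.25 on hair loss arrays, and -1.95 and -3.78 in wild type, where only replicate 1 was above background. The difference of normal skin from wild type was 9.49 ± 0.80 (limma adjusted p = 0.00724). Its processed intensity was 3930 to 42400 on the mutant arrays and 21.5 and 11.7 on the wild type arrays. The groups of mutant and wild type skin did not overlap.

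Krt28 was measured above background on all 8 arrays by the probe used for the gene. Its levels were 5.76, 4.28, 6.95 and 5.83 in mutant normal skin, 7.14 and 5.89 on hair loss arrays, and 0.06 and 0.05 in wild type skin. The wild type pair was nearly equal, and the lowest mutant array stood 4.22 above it. The difference was 5.65 ± 0.67 (95% interval 4.10 to 7.20, limma adjusted p = 0.016). The second Krt28 probe gave 6.18 ± 0.72 (limma adjusted p = 0.016), with 1 of 2 wild type arrays above background.

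Krt26, a type I keratin of the sheath cuticle, was above background on all 6 mutant arrays and on neither wild type array. It had levels of 2.13, 0.53, 3.69 and 2.79 in mutant normal skin, 3.88 and 2.69 on hair loss arrays, and -5.08 and -5.86 in wild type. Against the lowest signal above background on each wild type array, mutant normal skin was at least 50.6-fold higher (fitted difference 7.76 ± 0.80, limma adjusted p = 0.012). With another background correction (normexp), the fitted difference was 3.51, below that bound, and the call was lost (limma adjusted p = 0.053).

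Among the type II genes, Krt71 is found in all sheath layers. Its levels were 9.09, 7.98, 9.52 and 8.94 in mutant normal skin, 10.06 and 9.04 on hair loss arrays, and 1.28 and -1.69 in wild type, all above background. The processed intensity ran from 28900 to 133000 on mutant arrays, against 203 and 49.5 on wild type arrays. Mutant normal skin exceeded wild type by 9.09 ± 0.79 (95% interval 7.25 to 10.92, limma adjusted p = 0.00761), with a gap of 2.98 between the wild type arrays.

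Krt73, a type II keratin of the sheath cuticle, had 5.84, 4.46, 6.22 and 5.37 in mutant normal skin, 6.74 and 5.49 on hair loss arrays, and -0.86 and -1.53 in wild type. All 8 arrays were above background, and mutant and wild type values did not overlap. The difference was 6.67 ± 0.53 (limma adjusted p = 0.00695), the smallest p of the 8 members.

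Krt72, the other type II cuticle keratin, was above background in wild type skin too. It had 3.03, 2.52, 5.21 and 4.23 in mutant normal skin and 5.13 and 3.96 on hair loss arrays, but 1.75 and 1.88 in wild type, where processed intensities were 279 and 589. Mutant and wild type arrays did not overlap, and the lowest mutant array was only 0.64 above the higher wild type array. The difference of 1.93 ± 0.72 (95% interval 0.26 to 3.60) did not pass the threshold (limma adjusted p = 0.24, unadjusted p = 0.0284). With slide row as a block, which compares wild type with Mutant113 normal skin in row 2, it was 2.91 (limma adjusted p = 0.0309).

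Krt74 was dim throughout, above background only on mutant normal skin replicates 3 and 4. Levels were -4.65, -4.67, -3.65 and -4.04 in mutant normal skin, -3.37 and -4.50 on hair loss arrays, and -4.73 and -5.48 in wild type. The difference of 0.86 ± 0.43 did not pass the threshold (limma adjusted p = 0.348) and turned to -0.15 with normexp.

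**Figure D2:**
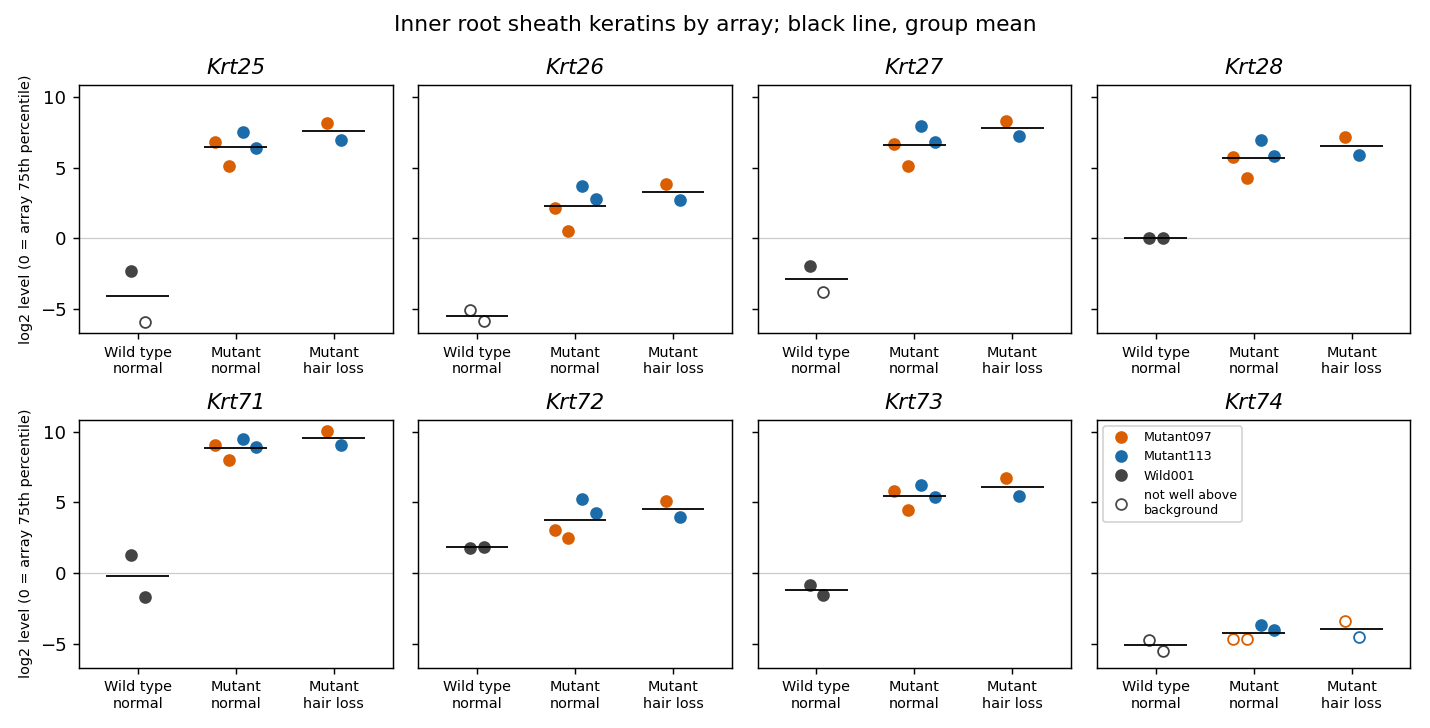
Level of each inner root sheath keratin on each array (y axis, log2 level, 0 is the 75th percentile of the array) by group, with the group mean as a black line, colour for the title number and open circles for arrays not well above background. The mutant arrays of Krt25, Krt26, Krt27, Krt28, Krt71 and Krt73 stand 4.22 to 7.40 above the higher wild type array, those of Krt72 only 0.64.

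Leaving aside Krt74, every mutant normal skin array was above every wild type array for 7 of 7 members, against 13.6% of all probes tested. For Krt26 this was partly fixed by the filter, since it was above background on mutant arrays only. The median difference of the members was 7.22, or 6.17 with Krt26 at its bound, against -0.04 over all probes. These calls rest on both wild type arrays, although the differences stayed large without either (5.65 to 12.37 for the 6 genes): the count of called members was 0 without wild type replicate 2 (0 calls among all probes) and 2 without replicate 1 (Krt25 and Krt71). It was also 0 when the arrays of 1 title number and group were averaged into 1 sample, which left a single wild type value, the same differences and 0 calls among all probes.

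Hair loss skin of the mutants also exceeded wild type skin, and in the same 6 genes. Krt25 was higher by 11.67 ± 1.17, Krt27 by 10.65 ± 0.92, Krt71 by 9.75 ± 0.91, Krt73 by 7.32 ± 0.62 and Krt28 by 6.46 ± 0.77 (limma adjusted p from 0.00825 to 0.0138). For Krt25 the difference of the means was 10.59 with wild type replicate 2 at the lowest signal above background, and the fitted difference with normexp was 8.5. Krt26 was at least 101-fold higher (limma adjusted p = 0.0106). With normexp its fitted difference was 4.4, below that bound, though still called (limma adjusted p = 0.0261). Over all probes tested, 302 (0.993%) were called higher. Krt72 (2.73 ± 0.83, limma adjusted p = 0.111) did not pass the threshold, but with slide row as a block it was 4.68 (limma adjusted p = 0.0164). No slide row held both hair loss and wild type arrays. The blocked value therefore adds hair loss minus Mutant097 normal skin to Mutant113 normal skin minus wild type, and title number and row cannot be told apart in it. Krt74 was above background in neither group. The median of the members was 8.04, or 6.99 with Krt26 at its bound, against -0.06 over all probes. Leaving aside Krt74, hair loss arrays did not overlap wild type arrays for 7 of 7 members, against 24.8% of all probes. For Krt26 this too was partly fixed by the filter, since it was above background on mutant arrays only. The comparison shares its wild type arrays with that of normal skin, and its count of called members was 0 without hair loss replicate 1, 0 without wild type replicate 2, 2 without wild type replicate 1 and 0 with averaged title numbers.

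Within the mutants, no inner root sheath keratin differed past the threshold between hair loss and normal skin. The differences were 0.64 to 1.16 in the members other than Krt74 (0.31, above background on no hair loss array), with a median of 0.81 over all 8, and hair loss and normal skin arrays overlapped for 8 of 8 members, while 5.73% of all probes tested had every hair loss array above every normal skin array. Krt27 was higher by 1.16 ± 0.80 (95% interval -0.69 to 3.01), Krt25 by 1.11 ± 1.01 (-1.24 to 3.45) and Krt71 by 0.67 ± 0.79 (-1.17 to 2.50), each with a limma adjusted p of 0.999. Of all probes, 0 (0%) were called, while 1582 had an unadjusted p under 0.05, among them 0 of the 8 members. Without hair loss replicate 1, the 8 differences were -0.25 to 0.62. With slide row as a block the 8 differences were 0.72 to 1.95, with 0 members called. That block sets both hair loss arrays, also the one of Mutant113, against the normal skin arrays of Mutant097 alone. The intervals do not show that levels were alike: that of Krt25 reaches a rise of 3.45. In each of Krt25, Krt26, Krt27, Krt28, Krt71, Krt72 and Krt73, the mean level was lowest in wild type, then mutant normal skin, then hair loss skin, and only the last 2 groups did not differ past their spread, apart from Krt72, where no neighbours did.

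**Figure D3:**
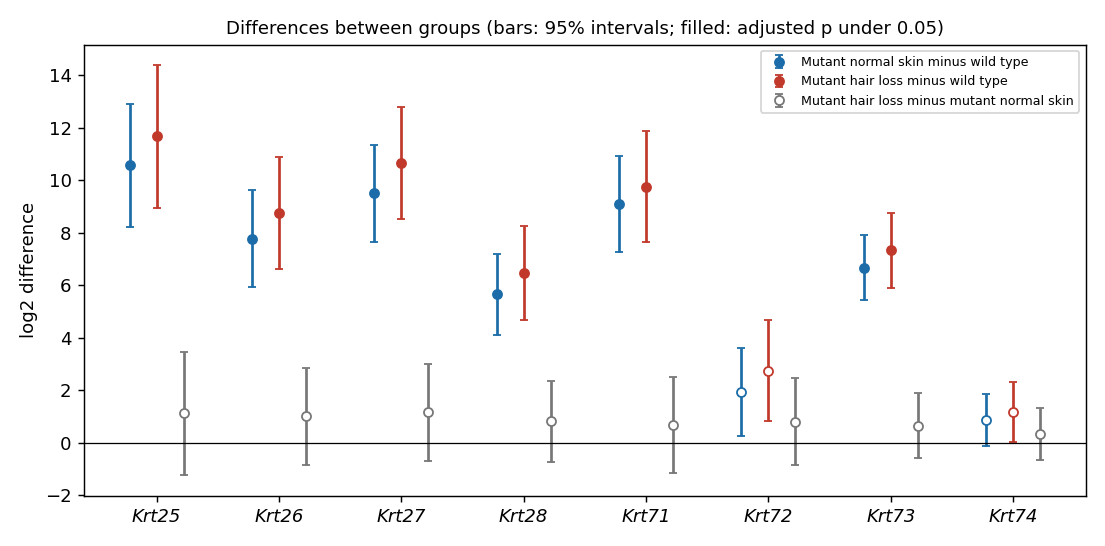
Log2 difference between groups for each member (y axis), with 95% intervals from the fit; filled points are called at an adjusted p under 0.05. In fitted differences, both mutant groups lie 5.65 to 11.67 above wild type for 6 genes, while every difference between hair loss and normal skin of the mutants (0.31 to 1.16) has an interval that includes 0.

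Hair loss and normal skin were also compared within each title number. In Mutant097, the hair loss array was above the mean of the normal skin arrays for 8 of 8 members, by 1.28 to 2.55 (median 2.16, with Krt74 included although it was not above background on that array). In Mutant113, it was below that mean for 7 of 8, from -0.76 to 0.01 (median -0.40). No member was called in either (limma, adjusted p at least 0.141 in Mutant097 and 1 in Mutant113), against 0.569% of all probes called higher in Mutant097 and 0.00329%, a single probe, called lower in Mutant113. Tested directly, the difference between these lesion effects was -3.11 to -1.71 (median -2.37) and called for 0 of 8 members, with 0% of all probes called lower and 2889 probes, 4 members among them, at an unadjusted p under 0.05. These 4 include Krt74 (-1.95), which passed the filter only through the normal skin arrays of Mutant113. Its direction here and within Mutant113 was therefore partly fixed by the filter. Krt72 came closest, with a difference of -3.11 ± 0.64 (limma adjusted p = 0.238). Each title number has 1 hair loss array, so the spread came from the pairs of normal skin arrays alone.

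**Figure D4:**
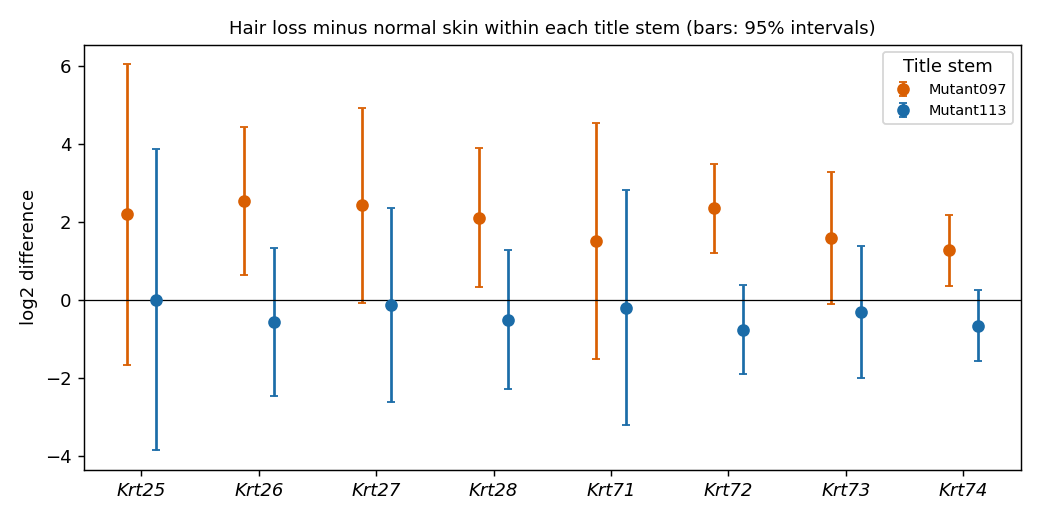
Hair loss minus normal skin (y axis, log2 difference with 95% intervals from the fit) for each member within Mutant097 (orange) and Mutant113 (blue). All 8 values are above 0 in Mutant097 (1.28 to 2.55) and 7 of 8 below 0 in Mutant113, and the difference between the numbers passed the threshold for 0 genes. Krt74 was above background on neither hair loss array.

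The normal skin of the mutants itself varied. Leaving aside Krt74, replicate 2, of Mutant097, was the lowest of the 6 mutant arrays for every member, and hair loss replicate 1 the highest for each but Krt72. Krt74 was above background on neither of those arrays. The 6 mutant arrays spanned 2.08 (Krt71) to 3.35 (Krt26) among the members called. Normal skin of Mutant113 was above that of Mutant097 by 0.64 to 1.95 (median 1.17), with 0 of 8 members called and 0.158% of all probes called higher. For Krt74 (0.82) the direction was partly fixed by the filter, which it passed only through the normal skin arrays of Mutant113. Krt72 had the largest of these differences, 1.95 ± 0.37 (limma adjusted p = 0.118), and passed the threshold with normexp (2.01, limma adjusted p = 0.00714). Normexp called 465 of all probes in this comparison, in either direction, against 81 without it. In normal skin, title number and slide row cannot be told apart in the mutants.

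Set against the same wild type arrays, the normal skin of Mutant097 had 6 members called (0.782% of all probes called higher) and that of Mutant113 had 7 (1.77%). Without the filter on dim probes, Krt25 and Krt28 lost their calls in Mutant097 (limma adjusted p = 0.0637 and 0.0551), and with quantile normalization Krt74 gained one in Mutant113 (limma adjusted p = 0.0393). That Krt74 call was partly fixed by the filter, which the gene passed only through these Mutant113 arrays. Krt74 was above background on neither wild type array, so its difference from wild type is not measured. The member called in Mutant113 alone was Krt72, at 2.91 ± 0.37 above wild type (limma adjusted p = 0.0222), beside 0.96 ± 0.37 in Mutant097 (limma adjusted p = 0.232), and the direct difference between them, given above, did not pass the threshold. Krt25 was 10.07 and 11.05 above wild type in Mutant097 and Mutant113, and Krt71 8.74 and 9.43. Leaving out mutant normal skin replicate 3 reduced the count in Mutant113 to 4, and that in Mutant097 fell to 2 when mutant normal skin replicate 1 was left out, to 3 without replicate 2, 3 or 4 of that group or replicate 1 of the wild type, and to 1 without the other wild type array.

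Normal skin samples were read by title letter as well. In these, samples lettered B were on average above those lettered A by 0.39 to 2.14 (median 1.03) for 8 of 8 members with title number as a block, a comparison added after the values were seen. The largest, of Krt25, includes a wild type gap of 3.62, or 1.46 with replicate 2 at the lowest signal above background. Within wild type, Krt27, Krt71 and Krt73 were also higher in B, Krt28 was nearly equal, and Krt72 was lower in B than in A (1.75 against 1.88). Krt26 and Krt74 were above background on neither wild type array, so their wild type gaps are not measured. No member was called, and 0% of all probes were, while 1523 probes and 6 of the 8 members had an unadjusted p under 0.05 (limma).

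Trichohyalin and a few genes tied to it were higher along with the keratins, while most other genes of the inner root sheath did not pass the threshold. Of 14 listed partners, 3 rose in mutant normal skin over wild type, 0 fell, and the list's median was 0.53. Tchh, trichohyalin, the matrix protein of the sheath, had 7.17, 5.93, 8.44 and 7.80 in mutant normal skin against 0.02 and -0.72 in wild type, a difference of 7.69 ± 0.65 (limma adjusted p = 0.00724). Tchhl1, a relative of trichohyalin, rose by 7.98 ± 0.90 (limma adjusted p = 0.0142). Padi3, an enzyme that converts arginines of trichohyalin to citrulline, was above background on no wild type array and was at least 192-fold higher (limma adjusted p = 0.00761). It passed the filter only through mutant arrays, so its direction was partly fixed by the filter. Padi1, a related enzyme, differed by 3.29 ± 0.82 without passing the threshold (limma adjusted p = 0.134). Gata3, a regulator of the sheath lineage that the epidermis also expresses, differed by 0.46 ± 0.18 (limma adjusted p = 0.257), and the cornified-layer genes Cdsn and Spink5 by 0.22 and 0.11 (limma adjusted p = 0.692 and 0.841). Hair loss skin over wild type also had 3 of 14 called, Tchh, Tchhl1 and Padi3, and hair loss over normal skin of the mutants 0 of 14.

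Genes of the layers on either side of the sheath and of the hair matrix were counted next. Of 4 companion layer keratins, Krt75 alone rose in mutant normal skin, by 2.69 ± 0.42 (limma adjusted p = 0.0435), and Krt6a, Krt16 and Krt17, which injured epidermis also makes, differed by 1.56, 1.34 and 0.80 without passing it. Of 14 hair shaft keratins tested, 10 rose over wild type, with a median of 6.18 (5.66 with 9 of these genes, above background on no wild type array, at their bounds). Genes above background on no wild type array passed the filter only through mutant arrays, so this count was partly fixed by the filter. Of 7 hair matrix regulators tested, Hoxc13, which controls hair keratin genes, rose by 2.98 ± 0.48 (limma adjusted p = 0.0475), and the list's median was 1.59. Between hair loss and normal skin of the mutants, 0 genes of these 3 lists were called. The hair shaft list had a median of 1.70 there, and its lesion effect differed between the title numbers by a median of -4.27, with 0 of 14 called, in the same direction as the sheath keratins.

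Markers of other cells of skin were read on the same arrays. The mean level of 5 proliferation genes was 0.54 to 2.31 in mutant normal skin, 1.93 and 1.41 on hair loss arrays, and -0.96 and -0.15 in wild type, with 5 of 5 were higher in mutant normal skin (median 2.00, 0 called). That of 5 melanocyte genes was 0.54 to 2.92 in mutant normal skin, 2.76 and 1.74 on hair loss arrays, and 0.50 and -0.45 in wild type, with 4 of 5 higher (median 2.36, 0 called). The means of 6 skeletal muscle genes were 4.72 to 6.73, 5.28 and 3.66, and 6.68 and 6.67 in the same order of groups, with 0 of 6 higher in mutant normal skin (median -0.66, 0 called). The 4 fibroblast genes measured had means of 5.66 to 6.93, 6.41 and 6.03, and 7.35 and 6.88, with 0 of 4 higher in mutant normal skin (median -0.83, 0 called), and in Mutant113 normal skin over wild type their median was -1.43 with 1 called lower. No gene measured in these 4 lists was below background on all arrays. The 5 genes of outer root sheath and bulge had medians of -0.12 (mutant normal skin minus wild type) and -0.63 (hair loss minus normal skin), with 0 called. The part of these cells in the keratin differences was not tested.

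The genes whose profile over the 8 arrays lay nearest to the mean profile of the members, out of 14275 candidates, were Lrrc15, Ctse, Crnn, Vsig8 and Fbp1, with root mean square differences of 0.25, 0.29, 0.42, 0.45 and 0.45 on the log2 scale after centring. Lrrc15, a leucine-rich repeat membrane protein, had 4.63, 3.63, 5.93 and 4.86 in mutant normal skin, 6.41 and 5.23 on hair loss arrays, and -1.64 and -2.60 in wild type. Among the members, Krt73 was nearest to their mean (0.28), and Krt72 (2.04) and Krt74 (2.55) farthest. Taken singly, Krt27 and Krt71 were nearest each other (0.54), Krt25 was nearest Krt27 (0.67), and Krt26 was nearest Tchh (0.19). Krt72 was nearest Stox1 (0.22). Krt26, Krt74 and Ctse were above background on neither wild type array, and Krt25, Krt27, Crnn and Fbp1 on 1 of them, so the wild type part of these distances, and the ranks that rest on it, is not measured for them. The mean profile of the members takes in Krt25, Krt26, Krt27 and Krt74, so every distance to it rests partly on such values. These are descriptions over 8 arrays that share 1 slide, and the step between mutant and wild type arrays makes up most of each profile.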

How the data were processed

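Each of 8 skin RNAs was hybridised to 1 Agilent mouse expression array. The deposited scanner files hold a processed intensity per spot, which Feature Extraction 11.5.1.1 had corrected for background, per the file headers. The deposited matrix holds log2 values that matched log2 processed intensity within 0.01 for 55603 of 55603 probes after a constant per array. Spots flagged as outliers (118 to 210 per array) were left out, 0 were saturated, and spots of a probe were averaged on the log2 scale. The 75th percentile of these probe averages on each array was then subtracted. Probes were named through their accessions with RefSeq's mouse gene table. The array design names mm9, so RefSeq coordinates are given for the promoter windows only.

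Probes above background on at least 2 of 8 arrays (30417) were fitted with limma 3.58.1 in R 4.3.3: 1 model of the 3 groups, and 1 of group by title number. Tests were two-sided, p-values were Benjamini-Hochberg adjusted over all probes tested, and calls used 0.05. A gene was read from its probe with the highest mean. All members were described, with the brightest or called genes of each list and the 5 genes of nearest profile. Bounds ("at least") use, per array, the lowest signal above background or the probe's own if higher. Alternatives were normexp (offset 50, on median spot signal, since the files hold no mean signal), quantile normalization, the deposited matrix, other filters, every probe of a member, title number or slide row as a block, averaging by title number, leaving out each array and, added after the values were seen, wild type arrays not above background set to that bound's floor. The code was tested on simulated data. Members and lists were chosen with earlier results of these data known. The number of arrays limits the precision.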

Additional observations from a re-analysis of the deposited data

How the results depend on the processing

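With the arrays of each title number and group averaged, the count of called members fell from 6 to 0 for mutant normal skin over wild type and from 6 to 0 for hair loss over wild type, with the same differences and larger p-values. With arrays left out in turn, these counts ran from 0 to 6 and from 0 to 6, that of Mutant097 normal skin over wild type from 1 to 6 and that of Mutant113 from 4 to 7. With normexp, 1 member (Krt72) was called in the difference of lesion effects (-2.98, limma adjusted p = 0.0247) and 1 in Mutant113 minus Mutant097 normal skin. Over all probes, normexp called 287 in the former and 465 in the latter, against 0 and 81 without it. Krt74 turned sign with normexp in mutant normal skin over wild type (-0.15), hair loss over normal skin (-0.05), hair loss over wild type (-0.20), Mutant113 over Mutant097 (-0.08), and Mutant097 (-0.12) and Mutant113 (-0.19) over wild type. Krt74 in hair loss over normal skin ran from -0.25 (without hair loss replicate 1) to 0.88, and Krt73 in Mutant113 over Mutant097 from -0.04 (without mutant normal skin replicate 2) to 1.33. The cause was not tested. Title number as a replicate block left 0 members called between hair loss and normal skin of the mutants, as without it. With it the wild type comparisons could not be fitted, since no other group holds Wild001. Where an array was left out of a pair, the lone sample was assumed to vary like the others. Quantile normalization, the deposited matrix and a filter of 4 arrays left the count at 6 in both comparisons with wild type. Normexp gave 5 for mutant normal skin (Krt26 lost) and 6 for hair loss skin, and slide row as a block gave 7 in both (Krt72 gained). No row held both hair loss and wild type arrays, so the blocked hair loss comparison rests on the mutant normal skin arrays of each row.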
